A study of Mus musculus with 6 samples.

Results

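The nuclear genes for the subunits of the mitochondrial respiratory chain and of ATP synthase were described in RNA from sorted splenic natural killer T cells. The members were taken by name: protein-coding genes named Nduf followed by a, b, c, s or v and a digit (complex I), Sdha to Sdhd (complex II), names starting with Uqcr (complex III), names starting with Cox4 to Cox8 (complex IV) and names starting with Atp5 (complex V). The rule took 84 of the 48709 genes in the deposited table, of which 37 belong to complex I, 4 to complex II, 8 to complex III, 18 to complex IV and 17 to complex V. It leaves out subunit genes with other names, such as Cyc1, the cytochrome c1 of complex III. It also takes in a few genes whose products are not plain subunits. Cox7a2l acts in joining complexes into supercomplexes, and Ndufa4 is now counted with complex IV by many authors. Atp5s and Atp5sl carry older names of the ATP synthase series.

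The study's labels describe 6 samples of natural killer T cells from mouse spleen in a resting state, 3 labelled WT and 3 labelled Gpx4 cKO, a conditional knockout of the gene for glutathione peroxidase 4. Not given in the sources used here are the Cre driver, the age of the mice and whether samples came from separate animals. The deposited table names 6 libraries by the numbers 18 to 23, and no label mentions any of them. No library was therefore given a genotype, the planned comparison of Gpx4 cKO with WT was not run, and values are given for each library.

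In background, complexes I and II pass electrons from NADH and succinate to coenzyme Q, complex III passes them on to cytochrome c, and complex IV reduces oxygen with them. Complexes I, III and IV pump protons across the inner mitochondrial membrane, and complex V, ATP synthase, uses the gradient to make ATP. A few subunits of complexes I, III, IV and V are encoded by mitochondrial DNA and the others by the nucleus, so the subunits of a complex are made from transcripts of separate genomes, and complex II is wholly nuclear.

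Nuclear respiratory genes are known to carry promoter sites for the factors NRF1, GABP (of the ETS family) and YY1, so the members' promoters were searched for 3 fixed strings on both strands: GCGCA, any base and GCGC for NRF1, ACTTCCGG for ETS factors and AAGATGGC for YY1, none of which contains another. The window ran from 250 bases before to 50 after the RefSeq start on GRCm38.p6, and 69 members had such a window. The NRF1 string was in 17 of the 69 (24.6%), against 13.5% of 6940 genes tested for variation and 5.19% of all genes with a RefSeq promoter. Those 6940 genes were matched by symbol only and the members also by synonym. The 69 members include some with too few reads to be tested, such as Cox7b2 and Cox8b, so the sets are not fully alike. The YY1 string was in 11 (15.9%), against 6.48% and 3.19%, and the ETS string was in 5 (7.25%), against 11.2% and 4.31%. At least 1 string was in 31 members (44.9%), against 28.2% and 11.7%. By complex, the count with at least 1 string was 14 of 32 for complex I, 2 of 3 for complex II, 3 of 5 for complex III, 2 of 13 for complex IV and 10 of 16 for complex V. A match is a description of the letters and does not show a bound site. The following stretches of RefSeq promoter sequence show the strings in members of complexes I, III, IV and V. They are read 5′ to 3′ along the gene's strand, the minus strand in each case, the capitals mark the match, and all lie outside annotated exons. They lie at chr16:37654525-37654584 for Ndufb4, chr4:123718250-123718309 for Ndufs5, chr10:80406855-80406912 for Uqcr11, chr5:115349041-115349100 for Cox6a1 and chr11:115420026-115420085 for Atp5h.
Ndufb4: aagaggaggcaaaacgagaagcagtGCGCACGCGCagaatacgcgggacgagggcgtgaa
Ndufs5: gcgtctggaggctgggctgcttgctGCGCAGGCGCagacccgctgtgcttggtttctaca
Uqcr11: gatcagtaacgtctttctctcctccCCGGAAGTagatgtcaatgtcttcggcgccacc
Cox6a1: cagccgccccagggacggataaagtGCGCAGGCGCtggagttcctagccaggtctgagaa
Atp5h: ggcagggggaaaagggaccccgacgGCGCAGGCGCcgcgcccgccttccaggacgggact
Ndufb4, Ndufs5, Cox6a1 and Atp5h carry the NRF1 string and Uqcr11 carries the ETS string on its opposite strand. The levels of these 5 genes are not alike: their medians ran from 22.02 CPM per kilobase for Uqcr11 to 101 for Atp5h.

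Levels are given as CPM, exon reads per 1000000 after the library totals were corrected for composition. Total exon reads ran from 903524 in library 21 to 10122187 in library 19. On the corrected totals, the limit that a count of 0 allows was 3.62 CPM in library 21 and 0.282 in library 19. T cell transcripts were abundant in every library, with a summed level of 8 iNKT and T cell markers from 3793 CPM in library 23 to 5155 in library 19. Summed B cell markers (7 of 7 in the table) were at 1005 CPM in library 18, 2001 in library 19 and between 3942 and 5290 in the others, most of it from the antibody gene Igkc, and Ms4a1 lay between 5.74 and 20.4 CPM. Summed erythroid markers (5 of 5) were 4.22 and 4.33 CPM in libraries 18 and 19 and 51.9 to 240 in the others, and the CD8 T cell and neutrophil markers summed to less than 3 CPM in every library. Gpx4 itself ran from 3.20 to 31.3 CPM, and no library was given a genotype from it. In RNA from bulk samples, fewer cells of a type and less RNA per cell cannot be told apart.

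The 5 complexes together took 5840, 4880, 5239, 5512, 5519 and 5587 CPM in libraries 18 to 23. Library 18 was highest and library 19 lowest, and the ratio between them was 1.20 (95% interval 1.18 to 1.21, counting error only). As a percent of all exon reads, with no composition factor, the members took 0.604% in library 18, 0.512% in library 19 and 0.506% in library 21, so that library 21 rather than 19 was then the lowest, as it also was for complexes I and V. Lists of 6 values below follow libraries 18 to 23 in that order.

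Complex I, the NADH dehydrogenase, summed to 1971, 1733, 1763, 1905, 1890 and 2060 CPM in libraries 18 to 23. Library 23 was highest and library 19 lowest, a ratio of 1.19 (1.15 to 1.23). Complex II ran from 331 CPM in library 22 to 376 in library 20, a 1.14-fold range (1.07 to 1.21) that was 1.37 without Sdha, which holds 8213 of its 11557 reads. Complex III summed to 604, 467, 554, 597, 567 and 566 CPM, and library 19 lay apart from the other 5 libraries, with a ratio of highest to lowest of 1.29 (1.24 to 1.35). Without library 19 the ratio of complex III was 1.09. Complex IV, cytochrome c oxidase, summed to 1321, 1039, 1181, 1203, 1239 and 1128 CPM, 1.27-fold (1.24 to 1.30), and complex V to 1578, 1293, 1364, 1440, 1492 and 1482 CPM, 1.22-fold (1.19 to 1.25). For complexes III, IV and V the highest library was 18 and the lowest 19.

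**Figure D1:**
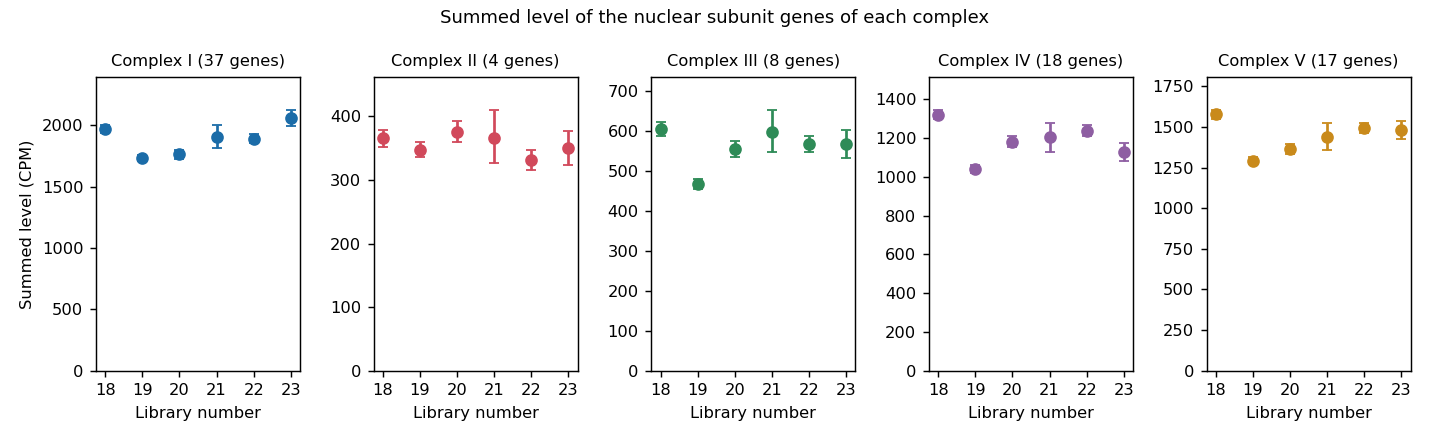
Summed CPM of the nuclear subunit genes of complexes I to V in each of libraries 18 to 23, with exact Poisson 95% intervals as bars. Library 19 is lowest for complexes I, III, IV and V, and library 22 for complex II.

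The division of the members' reads among the complexes was similar in all libraries. Complex I held 33.7% to 36.9% of the members' reads in each library, highest in library 23, and complex V 26.0% to 27.0%. Complex IV held 20.2% to 22.6%, lowest in library 23, complex III 9.56% to 10.8% and complex II 5.99% to 7.18%. These shares do not depend on the library size.

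For each gene with at least 200 reads in all, a chi-square test asked whether the libraries differed by more than counting error, with Benjamini-Hochberg adjustment over all 9042 genes tested. Of the members, 75 could be tested and 64 differed (85.3%), against 71.6% of all genes tested. The members' median number of reads was 1594 and that of all genes tested 1290, and the test finds smaller differences in genes with more reads. By complex, 28 of 36 differed for complex I, 3 of 4 for complex II, 8 of 8 for complex III, 11 of 11 for complex IV and 14 of 16 for complex V. The median ratio of highest to lowest library was 1.52 for the members and 1.57 for all genes tested. Counting error widens this ratio more in genes with fewer reads. Members that differed and also ranged over more than 2-fold numbered 6 of 75 (8%), against 23.5% of all genes tested, and 69 members stayed within a 2-fold range.

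**Figure D2:**
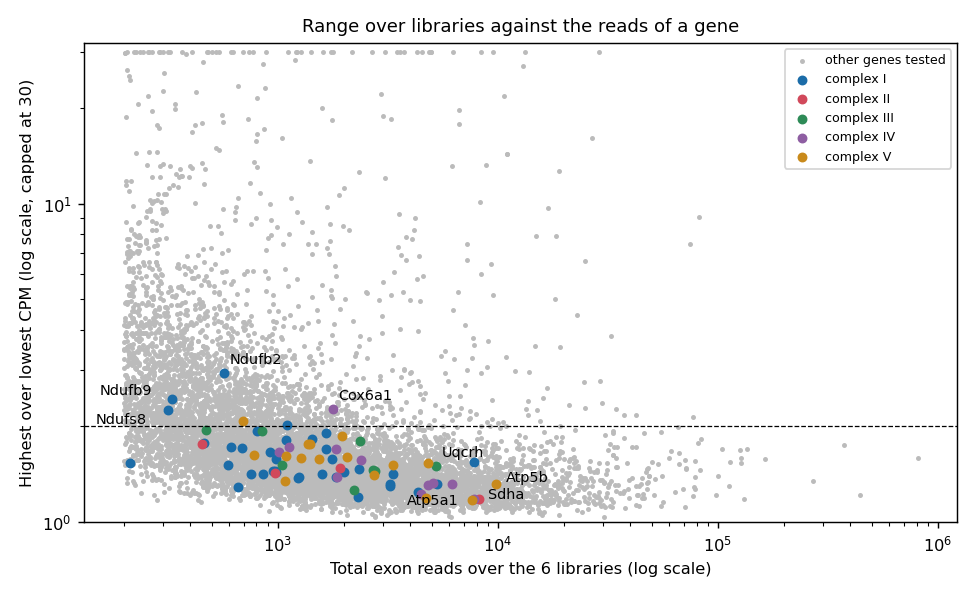
Ratio of the highest to the lowest CPM over the 6 libraries against the total exon reads of a gene, for members by complex (colours) and all other tested genes (grey), both axes on a log scale, with a dashed line at 2-fold. Of 75 members, 69 lie on or under the line, and the member with the widest range is Ndufb2 at 2.94-fold.

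The 11 members whose spread counting error could give were led in reads by Atp5a1, the alpha subunit of the F1 head, with 211 to 249 CPM and an adjusted p of 0.0769 by this chi-square test. Ndufs4, an accessory subunit of the NADH-binding arm of complex I, lay between 120 and 150 CPM (adjusted p = 0.0586). Ndufa4 lay between 38.0 and 53.9 CPM (adjusted p = 0.0631). The others were Ndufc2, Ndufs3, Ndufs5, Ndufa8, Ndufb8, Ndufb3, Sdhd and Atp5sl. With raw totals as library sizes 6 of the 11 passed the test, Atp5a1, Ndufs4, Ndufa4, Ndufa8, Ndufb8 and Ndufs3, so these calls turned with the scale. A p above the threshold does not show that these genes were equal in all libraries.

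Many members had their extreme values in the same libraries. In library 19 the lowest of the 6 values was found for 32 of 75 members (42.7%) and for 14.1% of all genes tested. In library 18 the highest value was found for 25 members (33.3%) and for 12.2% of all genes. Against each gene's median library, the median log2 position of the members was 0.12, -0.15, -0.03, 0.02, 0.01 and 0.04 in libraries 18 to 23. All genes tested had a median position within 0.01 of 0 in every library. With raw totals of exon reads as library sizes, 23 members (30.7%) and 9.07% of all genes were lowest in library 19, 27 members (36%) and 40.0% of all genes were lowest in library 21, the shallowest, and 36 members (48%) and 17.0% of all genes were highest in library 18. On the main scale, 11 of 36 tested members of complex I were lowest in library 19, and 0 of 4 of complex II. For complexes III, IV and V these counts were 6 of 8, 8 of 11 and 7 of 16. Libraries 18 and 19, a pair picked because they held the highest and lowest sums of the members, held B cell markers at the 2 lowest levels and erythroid markers near 0 in both. Between them 69 of 75 members were higher in library 18 (92.0%), against 49.0% of all genes tested. With raw totals 68 members were higher there (90.7%), against 45.9% of all genes tested. These values describe how the difference in the sum was spread over the members and are no independent support for it. The median log2 difference of library 18 over 19 was 0.32 for the members and -0.01 for all genes, with 0.05 CPM added. It was 0.19 for complex I, 0.31 for complex II, 0.38 for complex III, 0.39 for complex IV and 0.32 for complex V. B cell markers summed to 1005 CPM in library 18 and 2001 in library 19, and T cell markers to 4420 and 5155. Il2rb (928 and 1376 CPM), Cxcr6 (1084 and 1439), Cd3e (895 and 919), Cd3g (421 and 470) and Trav11 (74.09 and 78.05) were higher in library 19. Zbtb16 (357 and 245), Cd3d (181 and 160) and Trac (481 and 469) were lower there. Of the B cell markers Igkc was higher in library 19 (605 and 1735 CPM), and the others listed were lower. The part of these markers in the difference was not tested.

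**Figure D3:**
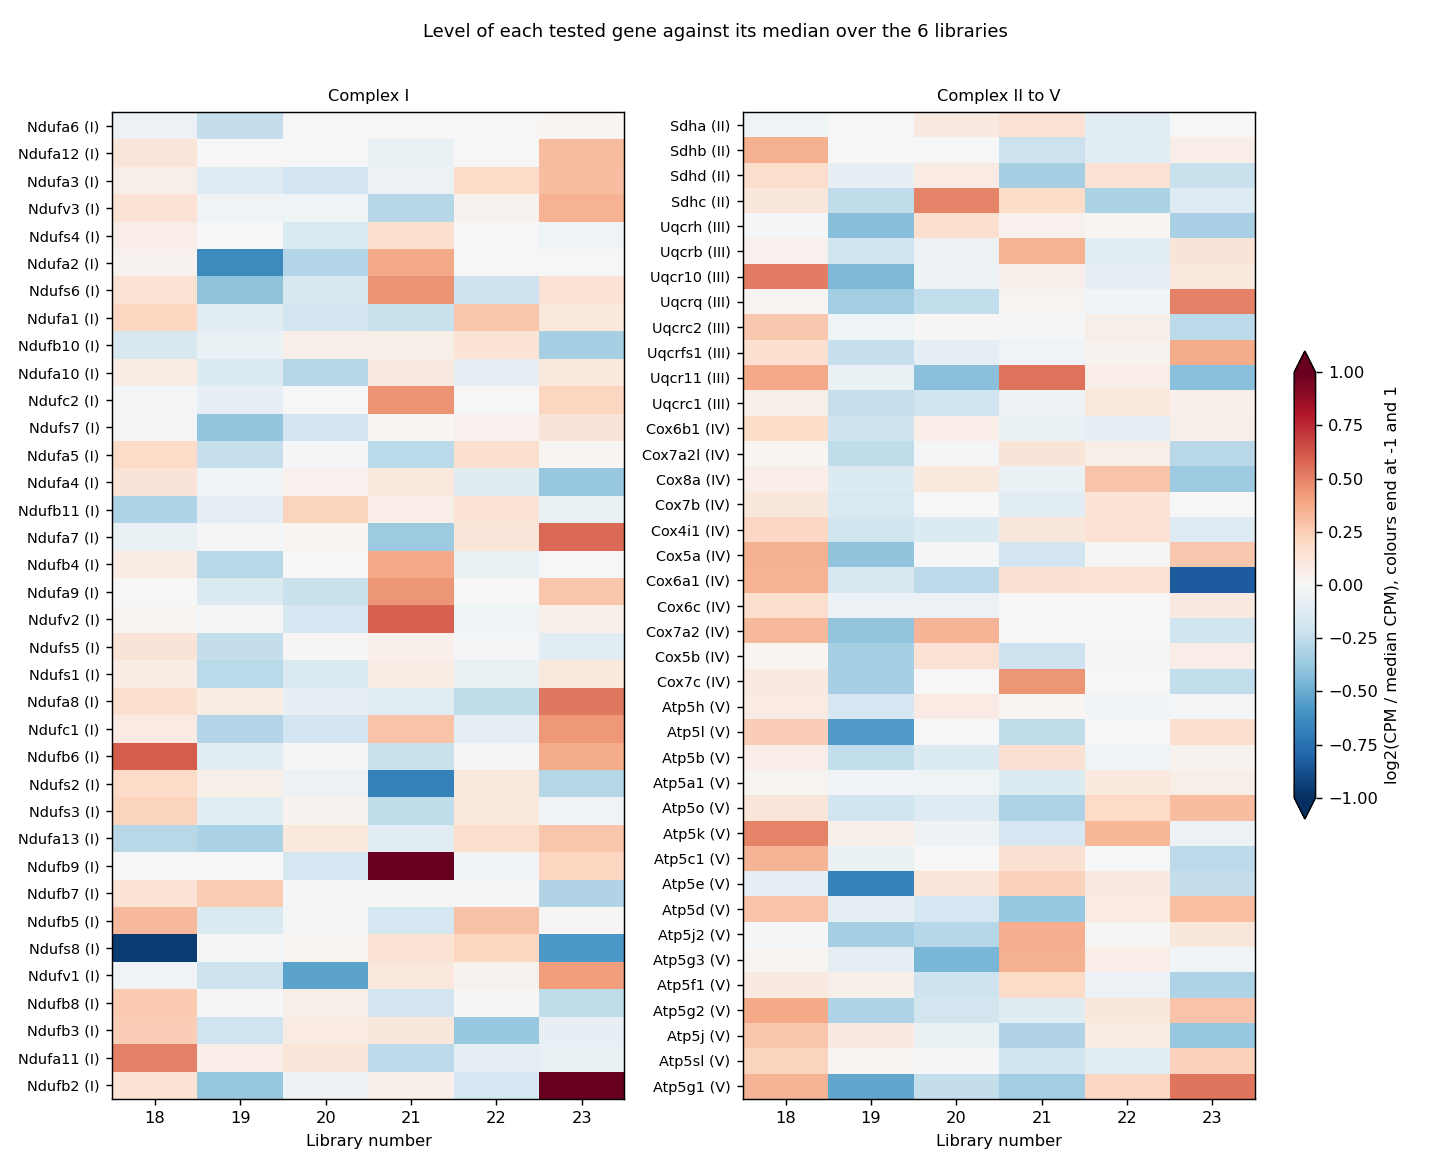
Level of each of the 75 tested members in each library as log2 of its CPM over its median CPM, with complex I at the left and complexes II to V at the right, genes ordered by level per kilobase within a complex. Blue fills much of the column of library 19 and red that of library 18, and colours end at a change of 1 in either direction, which Ndufb9 in library 21 and Ndufb2 in library 23 exceed.

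Among the core subunits of complex I, the 7 nuclear proteins that carry the electron path, the summed level ran from 303 CPM in library 19 to 356 in library 21 (1.18-fold). The 5 complex I genes with the highest level per kilobase of exon were accessory subunits. Ndufa6, on chromosome 15 from 82350139 to 82354291 on the minus strand, held 72.9, 64.1, 76.0, 76.0, 75.7 and 77.0 CPM in libraries 18 to 23. Library 19 was below the rest, and the other 5 spanned 72.9 to 77.0. The gene did not pass the test without library 19 or 20, nor with raw totals. Ndufa12 held 171, 158, 157, 150, 157 and 197 CPM, highest in library 23, without which it did not pass. Ndufa3 held 107, 94.1, 90, 98.95, 118 and 128 CPM, and library 23 was again highest. Its exons overlap Tfpt on the opposite strand, so some reads of either gene may be counted for the other. Ndufv3, a small subunit of the NADH-binding module on chromosome 17 from 31520115 to 31531326, held 257, 226, 225, 191, 237 and 294 CPM, highest in library 23 and lowest in library 21. Ndufs4 completed the 5 with 140, 134, 120, 150, 134 and 130 CPM. Its place depended on the length used: per kilobase of coding transcript it had 78.9, and Ndufb7 (107.3) and Ndufa4 (107) were among those above it.

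Of the 6 tested members with the widest ranges 4 belong to complex I, which holds 36 of the 75 tested. Ndufb2, a subunit of the membrane arm on chromosome 6 from 39592574 to 39603382, held 19.3, 13.5, 16.9, 18.1, 15.5 and 39.5 CPM (adjusted p = 6.23e-12). Library 23 stood alone and gave the 2.94-fold range, which was 1.43 without it, and the gene then no longer passed the test. The gene overlaps Braf on the opposite strand, whose 3055 exon reads outnumber its own 570. Ndufb9, another membrane arm subunit, held 10, 9.98, 8.91, 21.7, 9.78 and 11.6 CPM (adjusted p = 0.0446). Its 2.44-fold range rested on 18 reads in library 21 and was 1.30 without that library. The gene did not pass without library 21, nor with raw totals or a minimum of 1 read. Ndufs8, an iron-sulfur core subunit, held 5.66, 10.8, 11.1, 12.1, 12.7 and 7.38 CPM, 2.25-fold and lowest in library 18, without which it did not pass. Ndufa2, of the peripheral arm, held 39.9, 25.04, 31.8, 50.7, 39.0 and 39.0 CPM, 2.02-fold between libraries 19 and 21. It did not pass without library 19, and its exons overlap Tmco6 on the opposite strand. Ndufa4l2 had no read in any library.

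Complex II links the citric acid cycle to the chain. Sdha, its flavoprotein, on chromosome 13 from 74322254 to 74350280 on the minus strand, held 247, 253, 271, 280, 236 and 254 CPM. The spread was 1.19-fold, and it passed the test (adjusted p = 0.00939), but not without library 20 or without library 22. Sdhb, the iron-sulfur subunit, held 71.4, 56.1, 55.6, 48.3, 51.7 and 58.5 CPM, highest in library 18, without which it did not pass. Sdhc, a membrane anchor, held 14.9, 11.6, 19.5, 15.7, 11.1 and 12.7 CPM, the widest range of the complex at 1.76-fold, with library 20 highest, and did not pass without that library. Sdhd, the other anchor, held 32.7, 27.2, 30.5, 22.9, 31.9 and 24.8 CPM and did not pass (adjusted p = 0.158). Per kilobase of exon, Sdha had a median of 65.3 CPM, Sdhb 24.96, Sdhd 22.4 and Sdhc 4.25, so the transcripts of the 4 subunits were not equally abundant on that scale.

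The 5 accessory genes of complex III summed to 299 CPM in library 19 and 416 in library 21 (1.39-fold), and Uqcrc1, Uqcrc2 and the Rieske protein gene Uqcrfs1 together ran from 168 to 208 CPM (1.24-fold). Whether these ratios differ was not tested. Uqcrh, the hinge protein beside cytochrome c1, on chromosome 4 from 116066965 to 116075071 on the minus strand, held 172, 130, 195, 180, 177 and 140 CPM (adjusted p = 2.27e-24). Libraries 19 and 23 lay below the other 4. Uqcrb held 89.03, 75.1, 83.5, 110, 80.1 and 94.4 CPM, highest in library 21, and did not pass without library 19. Uqcr10 held 36.5, 18.8, 24.7, 26.6, 24.2 and 27.4 CPM, with library 18 highest and 19 lowest. Uqcr11, of 470 reads in all, had the widest range at 1.95-fold: 18.3, 13.5, 10.5, 20.5, 14.8 and 10.5 CPM. It did not pass without library 18. Uqcrq ran from 61.7 CPM in library 19 to 111 in library 23, and its ratio of 1.79 was 1.29 without library 23. Cyc1, the complex III gene outside the name rule, lay between 34.2 and 44.6 CPM in 5 libraries and at 85.7 CPM in library 21.

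Complex IV had the highest level per kilobase of the 5. Its median was 81.9 CPM per kilobase of exon over members with a median of at least 1 CPM, against 26.3 for complex I, 23.7 for complex II, 37.3 for complex III and 31.8 for complex V. The tested members had a median of 33.0 and all genes tested 10.04. Cox6b1, a subunit facing the intermembrane space, on chromosome 7 from 30616861 to 30626151 on the minus strand, led all members with 210 CPM per kilobase of exon. Per kilobase of coding transcript it had 306.5, and Cox6c (389), Uqcrh (368) and Ndufv3 (359) lay above it. It held 169, 129, 156, 142, 140 and 155 CPM. Cox7a2l, on chromosome 17 from 83501919 to 83514333 on the minus strand, held 202, 168, 198, 218, 209 and 166 CPM, low in libraries 19 and 23. Cox8a held 75.3, 65.6, 76.9, 68.8, 87.9 and 55.9 CPM, low in library 23 and high in library 22. Cox6a1 had the widest range, with 69.3, 48.6, 45.3, 60.3, 60.2 and 30.6 CPM, 2.27-fold (adjusted p = 2.46e-13). It was lowest in library 23, and without that library the ratio was 1.53. Cox5a, which like Cox5b has no partner isoform, held 72.3, 42.8, 56.2, 49.5, 56.9 and 68.0 CPM, and library 18 lay highest. Cox5b held 61.0, 47.7, 66.4, 51.9, 59.1 and 62.7 CPM, and 96.1% of its reads were unique to the locus. It did not pass without library 19.

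**Figure D4:**
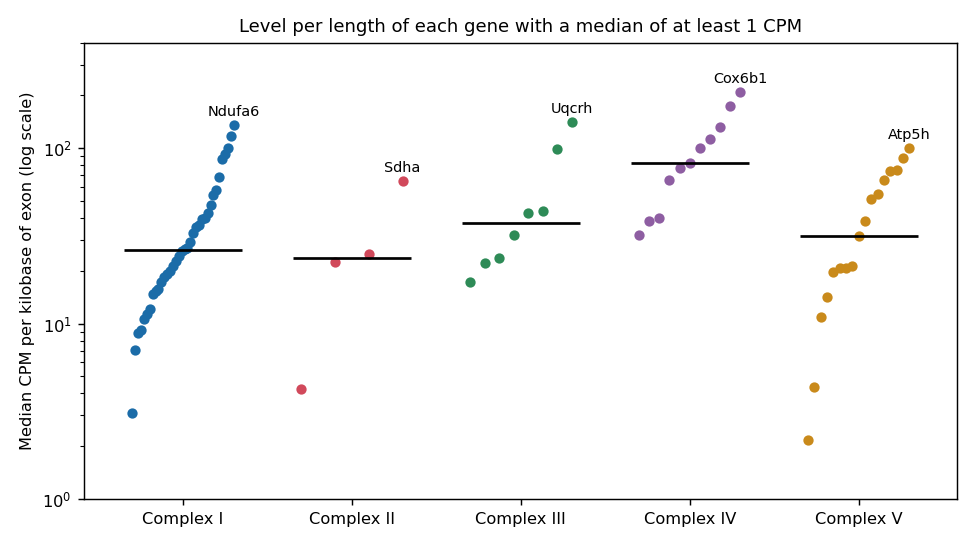
Median CPM per kilobase of exon over the 6 libraries for each member with a median of at least 1 CPM, by complex on a log scale, with a bar at the median of each complex. The highest member of each complex is named, and complex IV has the highest median at 81.9.

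Several complex IV subunits exist as isoforms from separate genes, with forms known from muscle, heart, lung or testis. In these libraries a single isoform took nearly all reads of 5 such families. The share of reads was at least 99.6% for Cox4i1, 97.3% for Cox6a1, 98.7% for Cox6b1 and 99.1% for Cox8a in each library. Cox7b held all reads of its family, since Cox7b2 had none, and Cox8b had none either. Over the 6 libraries Cox4i2 had 5 reads, Cox6a2 had 10, Cox6b2 had 7, Cox7a1 had 7 and Cox8c had 4, so these genes were at or under the limit of detection in most libraries. Cox4i1 held 180, 136, 142, 169, 173 and 143 CPM and overlaps Emc8 on the opposite strand, and Cox7b held 148, 123, 136.5, 127, 151 and 137 CPM, both lowest in library 19. Cox7b did not pass without library 19. Among these families Cox7a was the one with more than 1 abundant member. Cox7a2l took 83.7% to 87.8% of its reads and Cox7a2 took 12.1% to 16.2%, and per kilobase of exon the shares were 77.1% to 82.5% and 17.2% to 22.7%. Cox7a2 itself held 38.0, 23.1, 38.4, 30.2, 30.5 and 26.4 CPM, low in library 19.

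Complex V was ordered by its parts. The 5 genes of the catalytic F1 head (Atp5a1, Atp5b, Atp5c1, Atp5d and Atp5e) summed to 692 CPM in library 19 and 834 in library 18 (1.20-fold). The stalk genes (Atp5f1, Atp5h, Atp5j and Atp5o) ran from 395 to 461 CPM (1.16-fold), and the membrane accessory genes (Atp5j2, Atp5k and Atp5l) from 86.2 to 127 CPM (1.47-fold), each between libraries 19 and 18. Atp5h, subunit d of the stalk, on chromosome 11 from 115415689 to 115419962 on the minus strand, held 156, 131, 156, 150, 144 and 145 CPM, and 87.3% of its reads were unique. Neither Atp5h nor Atp5l passed the test without library 19. Atp5l, subunit g at the dimer interface, held 53.0, 30.1, 44.5, 37.4, 44.9 and 50.1 CPM, 1.76-fold with library 19 lowest. Atp5b, the catalytic beta subunit, on chromosome 10 from 128083273 to 128090391, held 334, 270, 291, 356, 311 and 328 CPM, and library 19 was again the lowest. Atp5e, the epsilon subunit, held 63.7, 42.7, 73.8, 79.6, 72.2 and 57.5 CPM, a 1.87-fold range that was 1.39 without library 19.

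The c ring, the rotor in the membrane, is built from 1 protein encoded by the 3 genes Atp5g1, Atp5g2 and Atp5g3, which differ in their import sequences. The share of their reads in Atp5g3 had a median of 42.6% (38.4% to 55.2%), in Atp5g2 33.9% (28.7% to 36.8%) and in Atp5g1 22.9% (16.1% to 26.9%). Per kilobase of exon the median shares were 43.6%, 45.8% and 10.4%, and Atp5g2 led in libraries 18, 20 and 23 and Atp5g3 in libraries 19, 21 and 22. Atp5g3 held 46.1, 42.5, 32.9, 57.9, 47.3 and 44.3 CPM and did not pass without library 20. Atp5g2 held 42.8, 26.6, 28.9, 30.2, 35.4 and 40.1 CPM. Atp5g1 ranged most among the tested genes of complex V at 2.08-fold, with 27.2, 14.97, 18.2, 16.9, 24.7 and 31.1 CPM (adjusted p = 1.31e-08). Libraries 18, 22 and 23 lay above the other 3 for Atp5g1 and Atp5g2, but not for Atp5g3. This order was read off the values and was not tested. Library 21 held 14 reads of Atp5g1 (95% interval 9.24 to 28.35 CPM) and 25 of Atp5g2 (19.52 to 44.53 CPM). Both intervals cover the levels in libraries 18 and 22, and the intervals of libraries 20 and 22 overlapped for both genes. Atp5s had 108 reads in all, from 1.05 to 4.36 CPM, and was not tested.

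Introns took a smaller part of the members' reads than of other genes' reads. Per the deposited ratio of intron to total reads, the median over tested members was 17.0%, against 39.1% over all genes tested. It ran from 0.913% for Atp5e to 66.5% for Ndufs4, and by complex from 5.99% for complex IV to 28.8% for complex II. The exons of 27 members overlap an exon of another gene in GENCODE M21, 25 of them on the opposite strand, and no source used here says whether counting used the strand.

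The mitochondrial partners of these genes were far more abundant in reads. All 13 mitochondrially encoded subunit genes, with 1896 or more reads each, differed between libraries, against 71.6% of all genes tested. Their sum over the sum of the nuclear members was 5.98, 6.56, 6.79, 9.86, 6.35 and 7.51 in libraries 18 to 23, high in library 21, the shallowest. By complex the ratio for library 21 was 7.80 for complex I, 9.54 for complex III, 20.8 for complex IV and 6.11 for complex V, and for library 18 it was 4.88, 6.63, 11.3 and 4.09. Mitochondrial transcripts were summed by read count, not per length. Assembly factors, the helper proteins that build the complexes, ranged in sum from 1061 CPM in library 19 to 1128 in library 18 (1.06-fold). Of the 39 tested, 21 differed between libraries, against 71.6% of all genes tested, and 46 of 47 listed factors were in the table. Most of the factors had fewer reads than the median of 1290 over all genes tested, and the test finds smaller differences in genes with more reads. Their median ratio of highest to lowest library was 1.86, against 1.57 for all genes tested. Counting error widens this ratio in genes with fewer reads, so these medians do not show that the factors varied more.

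**Figure D5:**
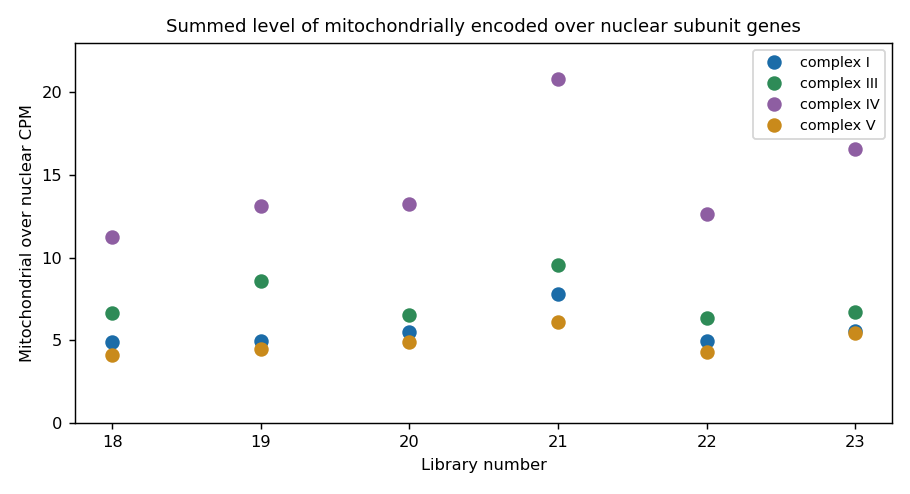
Summed CPM of mitochondrially encoded over nuclear subunit genes of complexes I, III, IV and V in each library. Library 21 is highest for each complex, at 20.8 for complex IV.

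In a list of related nuclear genes, 8 of 9 differed, against 71.6% of all genes tested, with a sum from 670 CPM in library 19 to 988 in library 21. The list held Cycs, Etfa, Etfb, Etfdh, Slc25a3, Slc25a4 and Slc25a5, as well as Cyc1 of complex III and Atpif1. Cycs, cytochrome c itself, ran from 47.1 CPM in library 21 to 97.4 in library 18, and the phosphate carrier gene Slc25a3 from 234 CPM in library 19 to 348 in library 18. Atpif1, the inhibitor of ATP synthase, was highest in library 23, at 107 CPM against 32.4 to 67.6 in the other libraries. Of the coenzyme Q genes 6 of 7 tested differed, and of the regulators of mitochondrial biogenesis 7 of 12, beside the same 71.6% of all genes. The regulators had a sum from 683 to 707 CPM (1.04-fold). Nrf1 (44.7 to 61.2 CPM), Gabpa (107 to 119 CPM) and Gabpb1 (38.9 to 46.9 CPM) did not pass the test (Gabpa overlaps Atp5j on the opposite strand), and Yy1 (117 to 147 CPM) and Tfam (49.1 to 77.2 CPM) did. Ppargc1a, the coactivator that drives the programme in muscle and fat, had 8 reads in all.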

How the data were processed

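RNA from 6 samples was sequenced from a UPXome library kit, per the labels' protocols. The builds GRCm38 and mm10 are named per the submitters' processing notes, with the aligner, counter and use of strand not given in the sources used here. The deposited table holds, per library, whole-number exon read counts, which the authors did not normalize, a deposited ratio of unique to total reads, a deposited fraction of intron reads, and exon lengths in bases, per the file headers. Another 11 value columns per library were not used. No library name matched a label, so the groups could not be compared, and nothing says that samples are separate animals.

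CPM used TMM effective sizes from edgeR 4.0.16 (R 4.3.3), from 9510 genes kept by filterByExpr, with factors of 0.917 to 1.05. Intervals are exact Poisson or binomial at 95%, and the limit for a count of 0 is 3 reads; both cover counting error only. The chi-square test had 5 degrees of freedom, a minimum of 200 reads and a threshold of 0.05 after Benjamini-Hochberg adjustment, and was tested on simulated data. It says nothing about genotype. Exon lengths and overlaps were checked against GENCODE M21, and promoters come from RefSeq. Alternatives were DESeq2 1.42.0 size factors, raw totals, totals without mitochondrial genes and Lars2, other read minimums, unique reads, other member sets, and leaving out libraries. The members and lists were chosen with earlier results of these data known. Named genes are the members highest per kilobase and widest in range in each complex, the isoform families with Cox5a and Cox5b, complex II and the 3 of most reads that did not pass the test. Uqcrq, Atp5e and genes outside the members were named after their values were seen. One marker gene is not reported here.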

Additional observations from a re-analysis of the deposited data

How the results depend on the processing

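The comparison of Gpx4 cKO with WT and its alternatives were not run, since no library matched a label. No paired analysis was possible because the library columns carry no replicate numbers or labels. The 64 members that differed between libraries were the same 64 with DESeq2 size factors (71.5% of all genes tested differed), and with the raw total of exon reads 65 members differed (73.5% of all), 59 of them shared. Leaving out 1 library at a time gave 47 to 63 members, lowest without library 19 (61% of all genes) and 48 without library 18 (63.1%). Totals without mitochondrial genes and Lars2, a minimum of 50 reads or of 1 read, and unique reads gave 65, 63, 64 and 64, against 73.5%, 69.3%, 53.9% and 70.9% of all genes. The 64 at 1 read held 61 of the main 64. Ndufa6, Ndufb4 and Ndufb9 were lost, and Cox6a2, Cox6b2 and Cox8c, of 10 reads or fewer each, were added. Requiring more than 2-fold left 6 (23.5% of all genes). The ratio of highest to lowest level with 1 library left out ran from 1.14 to 1.19 for complex I, 1.08 to 1.14 for complex II, 1.09 to 1.29 for complex III, 1.17 to 1.27 for complex IV, 1.15 to 1.22 for complex V and 1.12 to 1.20 for all members. Without libraries 21 and 23, an alternative chosen after seeing the data, complex I had a ratio of 1.14 and 58 members differed (61.2% of all genes). Without Sdha, complex II had a ratio of 1.37. Without members that overlap another gene, also chosen after seeing the data, complex V had 1.28. Counted per kilobase of exon, the median share of the members' reads was 37.3% for complex I, 3.13% for complex II, 11.4% for complex III, 29.3% for complex IV and 19.1% for complex V; longer genes then weigh less. With the length of coding transcripts in place of all exons, likewise added later, the median CPM per kilobase was 39.8, 36.2, 51.1, 131 and 65.7 for complexes I to V, and complex IV was again highest. Library 21 had the fewest reads and the widest intervals. On the main scale with all members kept, it was neither highest nor lowest for any complex or for all members. Leaving it out could not change those ratios. It was the lowest library for complex II without Sdha, so the ratio of 1.37 rested on it. With raw totals it was lowest for complexes I and V and for all members, and leaving it out was not tried there.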
